A study of Rattus norvegicus with 9 samples.

Results

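The miRNAs described here are 5 mature miRNAs of the squamous, keratinocyte type of epithelium that covers the cornea: rno-miR-205, rno-miR-203a-3p, rno-miR-203b-3p, rno-miR-31a-5p and rno-miR-31a-3p. They are the rows of the deposited table that carry exactly these names, and the rule used no measured value, although the names were picked with earlier results of these data known. They are 5 of the 765 mature miRNAs in the table. The study sequenced small RNA from 9 libraries of cornea from Wistar rats, labelled as 6 weeks old. There were 3 allograft corneas, 3 isograft corneas and 3 normal corneas, each group with libraries numbered 12, 34 and 56. An isograft is a transplant between genetically alike animals and an allograft one between unlike animals. The labels used here do not give the donor strain, the time after surgery, any treatment or the clinical state of a graft, nor whether the libraries came from separate animals. The p-values therefore measure only the spread between these libraries.

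A mature miRNA guides the silencing machinery to messenger RNAs that pair with its seed, the bases near its 5′ end. miR-205 is a marker of stratified epithelia and is known to repress the lipid phosphatase SHIP2 in human corneal keratinocytes and the ZEB transcription factors in epithelial cells. miR-203 promotes the exit of mouse epidermal cells from the stem cell state by repressing the transcription factor Tp63. miR-31 is induced in keratinocytes at wound edges and represses FIH-1, an inhibitor of hypoxia signalling, in human corneal keratinocytes.

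The mature sequences are shown because the members come from only 3 hairpins and differ in their seeds. They are RefSeq sequences on the rat build GRCr8, 5′ to 3′, with the seed (bases 2 to 8) in capitals.
rno-miR-205: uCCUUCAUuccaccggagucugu
rno-miR-203a-3p: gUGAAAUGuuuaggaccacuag
rno-miR-203b-3p: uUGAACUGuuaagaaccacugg
rno-miR-31a-5p: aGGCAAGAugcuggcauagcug
rno-miR-31a-3p: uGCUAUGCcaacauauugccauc

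All 5 members matched the RefSeq table, and no other mature miRNA of that table shared a seed with any of them. miR-205 lies at chr13:107564588-107564610 on the minus strand, and its hairpin gene, Mir205, overlaps no other annotated gene. miR-31a-5p (chr5:108714906-108714927) and miR-31a-3p (chr5:108714869-108714891) are the opposite arms of the Mir31 hairpin on the minus strand, which lies within an annotated long non-coding RNA gene. miR-203a-3p lies at chr6:137020756-137020777 on the plus strand, in the hairpin of Mir203. miR-203b-3p (chr6:137020716-137020737) lies within the same stretch on the minus strand, in the overlapping gene Mir3545, so it is read from the strand opposite to miR-203a-3p. The 2 miR-203 members share 17 of 22 bases and 6 of the 7 seed bases. Counted from the 5′ end with the miR-203a-3p base first, they differ by G1U, A6C, U11A, G14A and A21G, of which A6C falls in the seed.

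The hairpins of Mir203 and Mir31 are shown because the arms of one hairpin can be compared within a library. Capitals mark miR-203a-3p in the first and miR-31a-5p in the second.
Mir203 hairpin: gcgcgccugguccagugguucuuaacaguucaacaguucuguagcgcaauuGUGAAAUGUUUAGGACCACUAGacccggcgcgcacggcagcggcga
Mir31 hairpin: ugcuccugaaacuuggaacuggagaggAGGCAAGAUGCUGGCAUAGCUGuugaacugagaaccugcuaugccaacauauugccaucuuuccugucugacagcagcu

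The table also lists 3 other miRNAs of these hairpins, shown because their pairing with the members bears on how reads were assigned to strands.
rno-miR-203a-5p: aGUGGUUCuuaacaguucaac
rno-miR-203b-5p: aGUGGUCCuaaacauuucac
rno-miR-31b: cUAUGCCAgcaucuugccu

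All 20 bases of miR-203b-5p pair with miR-203a-3p, and all 19 bases of miR-31b pair with miR-31a-5p. Both antisense miRNAs were at 0 reads in all 9 libraries, while miR-203a-3p ran from 6181 to 36441 RPM and miR-31a-5p from 201 to 1138 RPM. RPM is the number of reads scaled by the authors to a common library total. The abundant members thus gave no reads on the names of their antisense partners. miR-203a-5p, the other arm of the Mir203 hairpin, was at 0 to 0.818 RPM, close to the 0.247 to 0.273 RPM that 3 reads were worth.

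**Figure D1:**
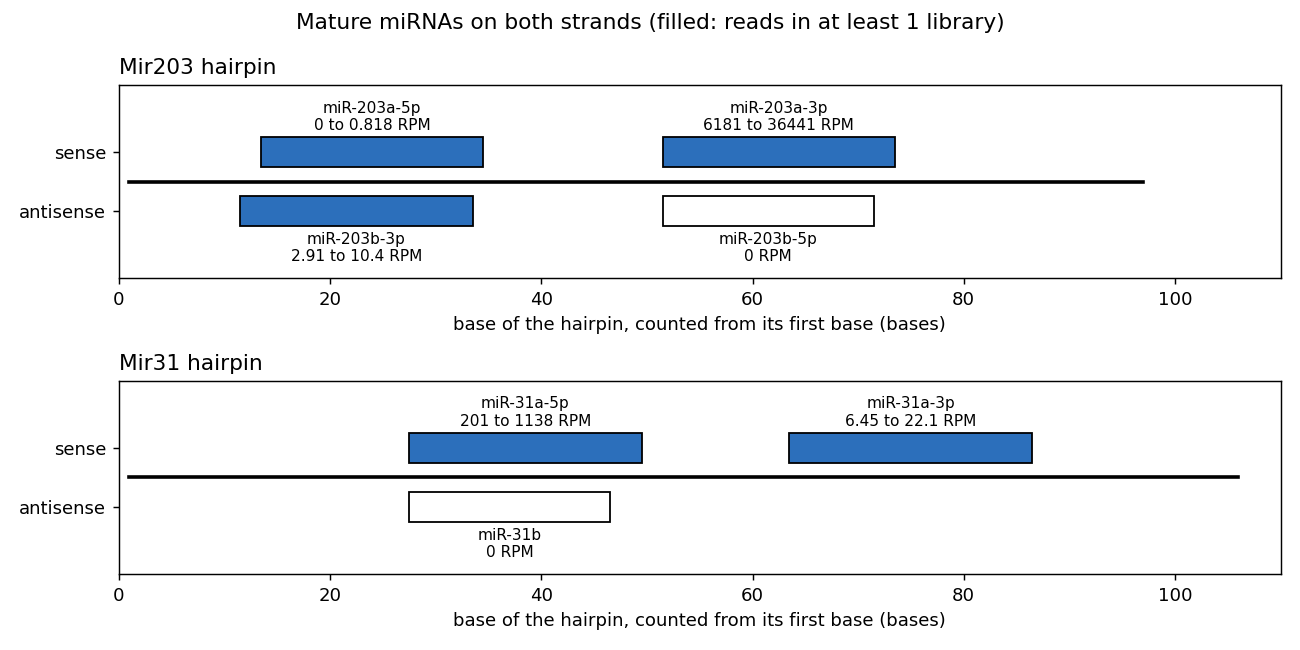
Positions of the listed mature miRNAs along the Mir203 and Mir31 hairpins (x axis, bases from the first base of the hairpin), on the sense strand above and the antisense strand below the line, with the range of RPM over the 9 libraries. Filled boxes had reads in at least 1 library. The open boxes, miR-203b-5p and miR-31b, were at 0 RPM in every library.

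The denominators ran from 11001459 to 11013517 reads, except for 12153889 reads in isograft 12. The listed miRNAs held 26.4% to 65.6% of these reads. The listed share was 33.9%, 26.4% and 46.3% in allograft libraries 12, 34 and 56, 36.8%, 54.5% and 48.8% in isograft libraries, and 46.6%, 65.6% and 60.7% in normal libraries, so RPM also depends on how many unlisted reads a library held. Within each group the libraries varied by much more than read sampling alone would give, with chi-square values of 70.5 to 810 for each degree of freedom. The summed levels of marker miRNAs of leukocytes, stroma and endothelium were higher in every graft library than in every normal library. Those of red blood cells overlapped between all groups. The summed level of 6 leukocyte miRNAs, none of them at 0 in all libraries, was 2350 to 4096 RPM in allografts, 171 to 345 RPM in isografts and 58.1 to 70.3 RPM in normal corneas. For 7 stromal and fibroblast miRNAs the sums were 11397 to 21574 RPM in allografts, 17134 to 36103 RPM in isografts and 8192 to 10206 RPM in normal corneas. Of these 7, limma called 5 higher in allografts and 6 in isografts against normal corneas (23.1% and 16.7% of all tested miRNAs). miR-199a-3p was called in neither (-0.20 and 0.74, limma adjusted p 0.683 and 0.181). miR-199a-5p was not called in allografts (0.26, limma adjusted p 0.599). For 2 endothelial miRNAs the sums were 2955 to 4874 RPM in allografts, 2095 to 6150 RPM in isografts and 346 to 857 RPM in normal corneas. For 3 red blood cell miRNAs they were 17.5 to 1067 RPM in allografts, 13.6 to 181 RPM in isografts and 82.3 to 343 RPM in normal corneas. The part of these shifts in the members' levels was not tested, and in whole corneas fewer epithelial cells and less miRNA per cell cannot be told apart.

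In allograft corneas the 3 abundant members, miR-205, miR-203a-3p and miR-31a-5p, were all lower than in normal corneas, by 1.40 to 2.06 on the log2 scale. In isograft corneas the means of all 3 abundant members lay between the allograft and normal means. Only the fall of miR-205 passed the test against normal corneas, and it was lost in some other settings. With all libraries, the ratios of miR-205 to miR-203a-3p and of miR-31a-5p to miR-205 did not pass after adjustment. The low members, miR-203b-3p and miR-31a-3p, did not pass the limma test in any comparison.

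miR-205, the marker of stratified epithelia, had 4034, 3832 and 11162 RPM in allograft libraries 12, 34 and 56, 5763, 14532 and 13178 RPM in isograft libraries, and 20546, 24542 and 25057 RPM in normal libraries. Every normal library was above every graft library, allograft 56 was the highest allograft and isograft 12 the lowest isograft, and the allograft and isograft ranges overlapped. The means were 6342 ± 4175 RPM in allografts, 11158 ± 4721 RPM in isografts and 23382 ± 2469 RPM in normal corneas (SD, n = 3 each). By limma on log2(RPM + 1), with Benjamini-Hochberg adjustment over the 281 tested miRNAs, miR-205 fell in allografts against normal corneas by 2.06 (SE 0.39, 95% interval -2.86 to -1.27, adjusted p 7.64e-05). That is 0.239 of the normal level, with an interval from 0.138 to 0.414. In isografts it fell against normal corneas by 1.17 (SE 0.39, limma adjusted p 0.0283), which is 0.444 of the normal level. The isograft call was lost without isograft 12 (log2 fold change -0.75, limma adjusted p 0.103), without normal 34 (adjusted p 0.0922) and without normal 56 (adjusted p 0.159). By level among all listed miRNAs, miR-205 ranked 10 to 14 in allografts, 9 to 12 in isografts and 3 to 4 in normal corneas.

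miR-203a-3p, the differentiation-promoting miRNA, was the most abundant member in 8 of the 9 libraries. It had 8541, 6181 and 19237 RPM in allografts 12, 34 and 56, 12236, 24081 and 22520 RPM in isografts, and 21386, 36441 and 23982 RPM in normal corneas. The allografts lay below all normal corneas, with allograft 56 only a little below normal 12, and the isografts overlapped both other groups. The means were 11320 ± 6957 RPM in allografts, 19612 ± 6436 RPM in isografts and 27270 ± 8048 RPM in normal corneas (SD, n = 3 each). It fell in allografts against normal corneas by 1.40 (SE 0.38, 95% interval -2.17 to -0.63, limma adjusted p 0.00274). Against normal corneas the isografts differed by -0.50 (95% interval -1.27 to 0.27, limma adjusted p 0.451), which did not pass, and without isograft 12 by -0.19.

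miR-31a-5p, the wound-edge miRNA, had 208, 201 and 496 RPM in allografts 12, 34 and 56, 262, 934 and 800 RPM in isografts, and 883, 1138 and 976 RPM in normal corneas. All allografts were below all normal corneas, and isograft 12, near the low allografts, was the exception among isografts. It fell in allografts against normal corneas by 1.85 (SE 0.43, 95% interval -2.73 to -0.98, limma adjusted p 0.000755). The isografts differed from normal corneas by -0.77 (95% interval -1.65 to 0.10, limma adjusted p 0.247), with overlapping values, and without isograft 12 by -0.20.

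**Figure D2:**
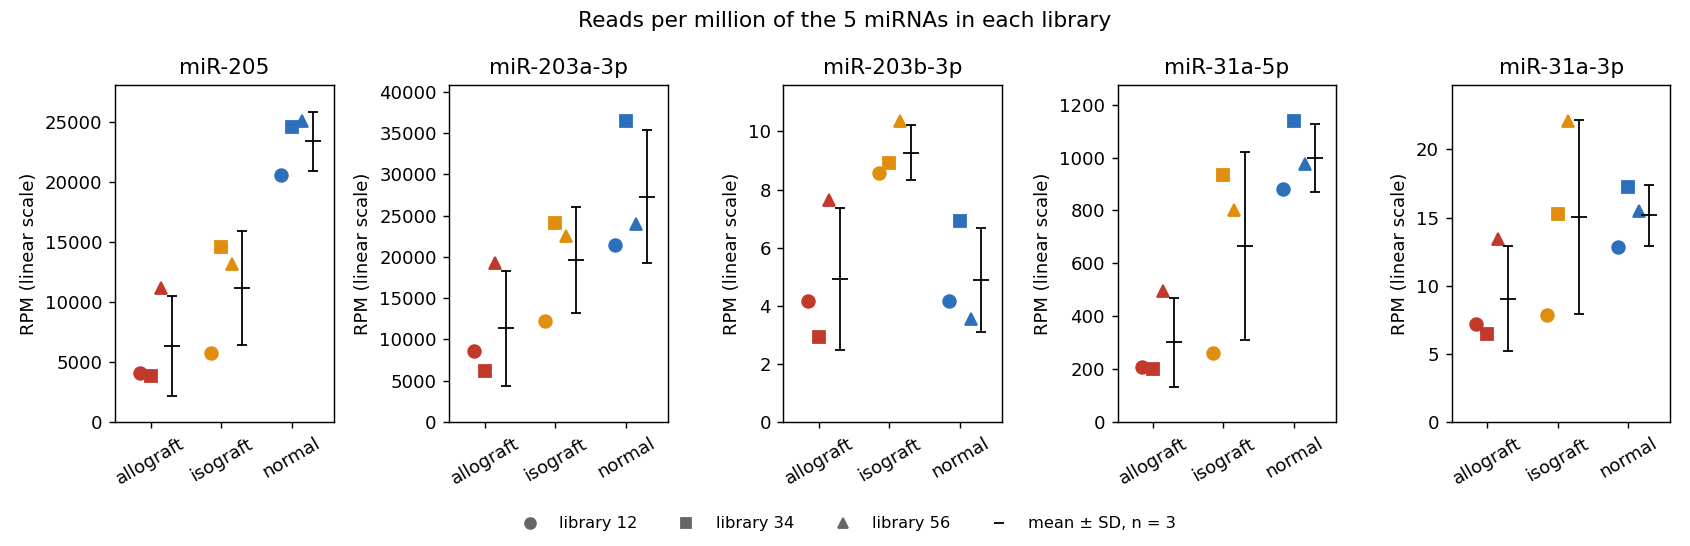
RPM of the 5 members in each of the 9 libraries (y axis), by group, with allografts at the left and normal corneas at the right. Points are libraries, and the bars beside them are means ± SD (n = 3). In miR-205, miR-203a-3p and miR-31a-5p every allograft lies below every normal cornea, while miR-203b-3p is highest in the isografts.

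miR-31a-3p, the other arm of the Mir31 hairpin, was far lower, at 7.18, 6.45 and 13.4 RPM in allografts 12, 34 and 56, 7.82, 15.3 and 22.1 RPM in isografts, and 12.8, 17.3 and 15.4 RPM in normal corneas. Its groups overlapped, and its difference between allografts and normal corneas was -0.74 (95% interval -1.57 to 0.08, limma adjusted p 0.132). That difference passed in 6 of 22 other settings, among them edgeR (adjusted p 0.00620), DESeq2 (adjusted p 0.0120) and limma without allograft 56 (adjusted p 0.0448) or isograft 12 (adjusted p 0.0437), and ran from -1.16 to -0.09 over the 22. In those 6 settings 28.4% to 37.4% of all tested miRNAs were called lower, against 24.2% in the main fit. Between isografts and normal corneas miR-31a-3p differed by -0.11 (limma adjusted p 0.892).

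miR-203b-3p, read from the strand opposite to miR-203a-3p, had 4.18, 2.91 and 7.63 RPM in allografts 12, 34 and 56, 8.56, 8.91 and 10.4 RPM in isografts, and 4.18, 6.90 and 3.54 RPM in normal corneas. It was the lowest member in 8 of the 9 libraries, isograft 12 being the exception, and every isograft lay above every other library. The level rests on 32 to 84 reads in an allograft, 98 to 114 reads in an isograft and 39 to 76 reads in a normal cornea. It reached the filter of 5 RPM in 5 libraries, 3 of them isografts, so it was tested because of that group. Its difference was 0.84 between isografts and normal corneas (limma p 0.0287, adjusted p 0.120) and -0.87 between allografts and isografts (adjusted p 0.0633). Between allografts and normal corneas it was -0.03 (95% interval -0.78 to 0.72, limma adjusted p 0.960), and this value turned positive when RPM was rescaled by the median of ratios or to the sum of the listed miRNAs.

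Of the 5 members, 3 were called lower in allografts against normal corneas, where 24.2% of the 281 tested miRNAs were, and 3 had no overlap with normal corneas in that direction, against 30.2% of all. In isografts against normal corneas 1 member was called lower, against 4.63% of all, and none higher, against 16.7%, by limma. miR-203b-3p entered the test through its isograft values, so its position there is a description and supports no call. In isografts against normal corneas its unadjusted limma p was 0.0287, with adjusted p-values of 0.0485 by edgeR and 0.0205 by DESeq2. These rest on the same filter and support no call either, and with no filter its limma adjusted p was 0.230. In that comparison 1 member lay below normal corneas without overlap (11.0% of all) and 1 above without overlap, miR-203b-3p (22.4% of all). In allografts against isografts no member passed by limma, against 21.0% of all called lower, although 4 of the 5, miR-203b-3p among them, had an unadjusted p under 0.05. On recovered reads, edgeR called 5 members lower where it called 35.6% of all tested miRNAs lower, and DESeq2 called 4 where it called 33.0%. Both counts include miR-203b-3p, which was tested because of its isograft values. In the same comparison 1 member, miR-203b-3p, lay lower without overlap (22.4% of all). The median log2 fold change of the members was -1.40 in allografts against normal corneas, -0.50 in isografts against normal corneas and -0.89 in allografts against isografts, where all tested miRNAs had medians of -0.14, 0.05 and -0.29. The shares over all miRNAs depend on the scaling. In allografts against normal corneas 24.2% were called lower and 23.1% higher, against 37.4% and 18.1% with RPM computed without miR-184 and 15.7% and 50.5% when values were scaled to the listed total. In isografts against normal corneas the median of ratios gave 17.4% lower and 23.5% higher and RPM without miR-184 gave 8.54% and 13.5%. In allografts against isografts 21.0% were lower and 13.5% higher, against 19.6% and 30.6% when scaled to the listed total. The 3 comparisons share libraries, so their values are not independent.

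**Figure D3:**
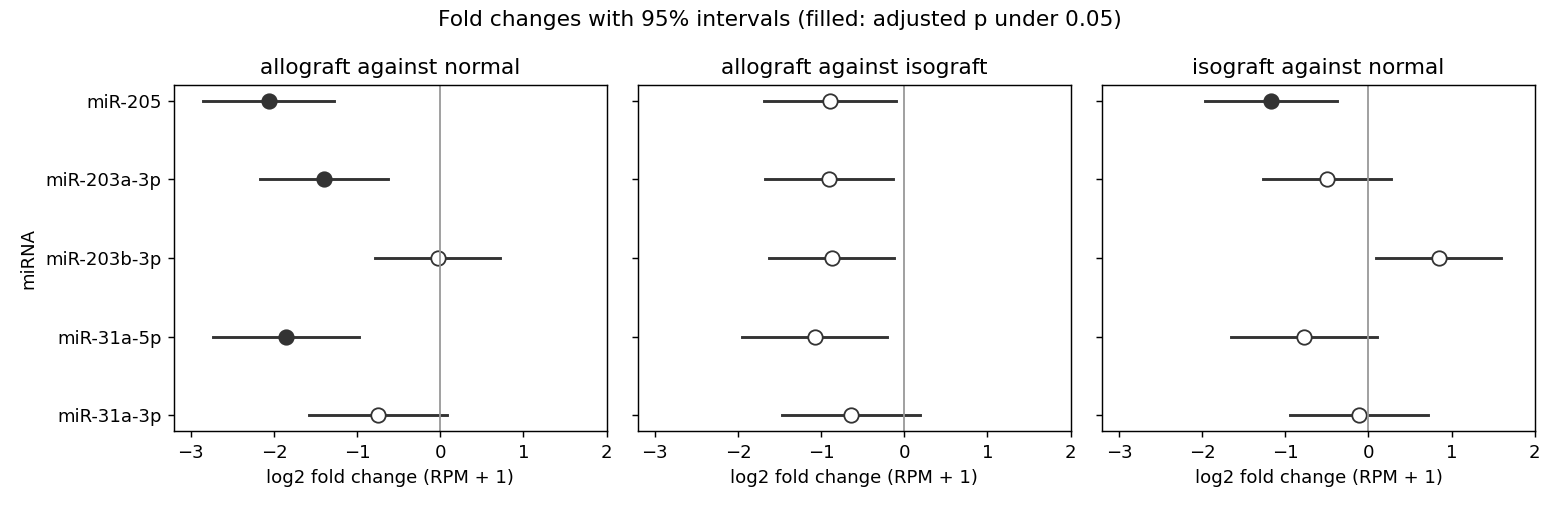
Log2 fold change of each member on the log2(RPM + 1) scale (x axis) in the 3 comparisons, with 95% intervals from limma. Filled points have an adjusted p under 0.05, which holds for 3 members in allografts against normal corneas and for miR-205 in isografts against normal corneas. All values in allografts against isografts are negative and unfilled.

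Between allografts and isografts, miR-31a-5p differed by -1.08 (95% interval -1.95 to -0.20, limma adjusted p 0.0503), miR-203a-3p by -0.90 (limma adjusted p 0.0611), miR-205 by -0.89 (limma adjusted p 0.0737) and miR-31a-3p by -0.64 (limma adjusted p 0.225). Isograft 12 had the lowest isograft level of all 4. Without it, miR-31a-5p fell by 1.65 (limma adjusted p 1.87e-05), miR-205 by 1.31 (adjusted p 0.000858) and miR-203a-3p by 1.21 (adjusted p 0.00238), and all 5 members passed, where 40.4% of all tested miRNAs were called lower. Without allograft 56, the highest allograft, 4 members passed, where 28.4% of all were called lower. Both counts include miR-203b-3p, which was tested because of its isograft values. With all 9 libraries kept, limma called 4 members lower after rescaling by the median of ratios (31.3% of all). It called 4 with RPM computed without miR-184 (26.3%), 4 with the library number as a block (24.2%) and 3 with robust variance (22.8%). A pseudocount of 5 RPM gave 1 (21.0%), and scaling to the listed total gave 0 (19.6%). The other filters, a pseudocount of 0.1 RPM and no mean-variance trend also gave 0. Each count of 4 includes miR-203b-3p.

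In the order of levels, miR-205, miR-203a-3p and miR-31a-5p were lowest in allografts, then isografts, then normal corneas, and of the neighbouring groups in that order only isografts and normal corneas differed past the threshold, for miR-205. The mean of miR-31a-3p was 9.03 RPM in allografts, 15.1 RPM in isografts and 15.2 RPM in normal corneas, and that of miR-203b-3p was 4.91 RPM in allografts, 9.27 RPM in isografts and 4.87 RPM in normal corneas, with no neighbours past the threshold for either. Within groups, the spread of log2 levels was 0.72 for miR-31a-5p, 0.66 for miR-205 and 0.62 for miR-203a-3p, against a median of 0.45 for all tested miRNAs (97.2, 91.8 and 87.2 as percentiles). The members together made up 3.77%, 3.87% and 6.67% of the listed miRNA reads in allografts 12, 34 and 56, 4.96%, 7.26% and 7.48% in isografts, and 9.19%, 9.48% and 8.24% in normal corneas.

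The ratio of 2 miRNAs in the same library does not depend on the RPM denominator, apart from the pseudocount of 1 RPM in the tested log2 values. Of 8 ratios, 5 between members and 3 of a member to miR-184, each was tested over the 3 groups with an exact permutation test (1680 arrangements, smallest possible p 0.00357). None passed after adjustment over the 8, and 4 had an unadjusted p under 0.05. Each ratio p-value below is from this test over the 3 groups and does not test a pair of groups. For every 100 reads of miR-203a-3p there were 47.2, 62.0 and 58.0 reads of miR-205 in allografts 12, 34 and 56, 47.1, 60.3 and 58.5 in isografts, and 96.1, 67.3 and 104 in normal corneas. Both grafts lay below normal corneas without overlap, by 0.66 in allografts and 0.67 in isografts on the log2 scale (exact permutation p 0.0321, adjusted 0.0714), and allografts and isografts differed by 0.01. Normal 34 was the normal cornea nearest to the grafts.

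For the arms of the Mir31 hairpin the ratio was higher in each graft library than in each normal library. For every 100 reads of miR-31a-5p there were 3.45, 3.22 and 2.71 reads of miR-31a-3p in allografts 12, 34 and 56, 2.98, 1.64 and 2.76 in isografts, and 1.45, 1.52 and 1.58 in normal corneas. Isograft 34 was the graft library closest to normal corneas (allograft minus normal 1.11 and isograft minus normal 0.66, log2, exact permutation p 0.0179, adjusted 0.0714).

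For every 10000 reads of miR-203a-3p there were 4.89, 4.70 and 3.97 reads of miR-203b-3p in allografts 12, 34 and 56, 6.99, 3.70 and 4.60 in isografts, and 1.95, 1.89 and 1.48 in normal corneas. Both grafts were again above normal corneas without overlap (1.37 in allografts and 1.34 in isografts, log2, exact permutation p 0.0357, adjusted 0.0714). In allografts against normal corneas miR-203b-3p itself differed by -0.03 and miR-203a-3p by -1.40. The allograft difference in the ratio thus mainly restates the fall of miR-203a-3p. Without isograft 12, 4 of the 8 ratios passed, with adjusted exact permutation p of 0.0214 for miR-203b-3p to miR-203a-3p and 0.0190 each for the Mir31 arms, miR-203a-3p to miR-184 and miR-31a-5p to miR-205. miR-203b-3p reached the filter of 5 RPM in 3 isografts, 1 allograft and 1 normal cornea. Its ratio is therefore a description and supports no call.

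miR-184, a miRNA of the corneal epithelium, was the most abundant miRNA of every isograft and normal library and ranked 2 in every allograft, and it was used as a further denominator. Its log2 fold change was -2.85 in allografts against normal corneas, -1.05 in isografts against normal corneas and -1.79 in allografts against isografts. All tested miRNAs had medians of -0.14, 0.05 and -0.29 in these comparisons, so a miRNA at the median also rises against miR-184. A higher ratio to miR-184 in allografts therefore means a smaller fall than that of miR-184, not a rise of the member. For every 100 reads of miR-184 there were 18.8, 25.0 and 35.3 reads of miR-203a-3p in allografts 12, 34 and 56, 9.07, 16.8 and 17.1 in isografts, and 9.98, 10.7 and 7.69 in normal corneas. Allografts lay above both other groups without overlap (1.44 against normal corneas and 0.89 against isografts, log2, exact permutation p 0.0179, adjusted 0.0714). The ratio of miR-205 to miR-184 differed by 0.78 between allografts and normal corneas (log2), with overlap. That of miR-31a-5p to miR-184 differed by 0.99, and allografts lay above normal corneas without overlap while isografts overlapped both. Between allografts and normal corneas the ratio of miR-31a-5p to miR-203a-3p differed by -0.45 and that of miR-31a-5p to miR-205 by 0.21, both with overlap. In this order the adjusted exact permutation p over the 3 groups was 0.252, 0.290, 0.314 and 0.143.

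**Figure D4:**
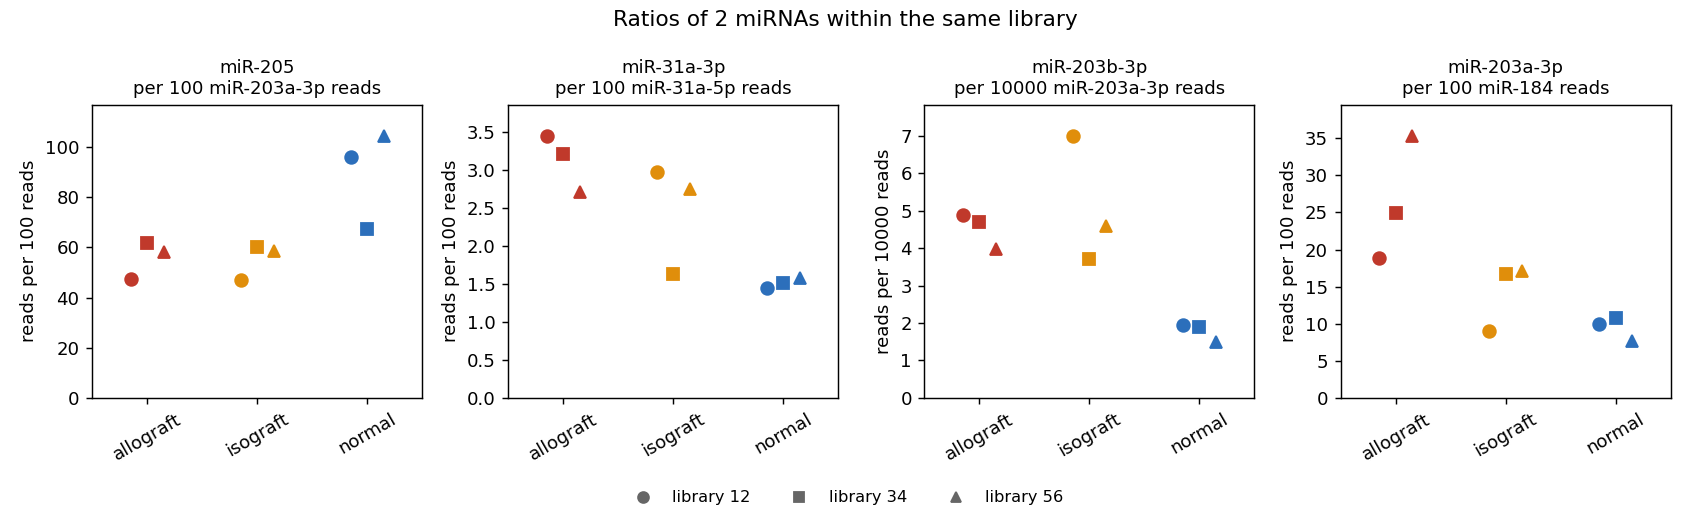
Reads of one miRNA per 100 or 10000 reads of another in the same library (y axes start at 0) for 4 ratios, by group. Each point is 1 library and its shape is the library number, which has no order. miR-205 per miR-203a-3p is lower in the graft libraries, the 31a and 203b ratios are higher in them, and miR-203a-3p per miR-184 is highest in the allografts.

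Other epithelial miRNAs gave a background to these values. Of 9 listed (miR-184, the miR-200 family and the miR-183 cluster), 8 were called lower in allografts against normal corneas, with a median log2 fold change of -1.78, and miR-141-3p was the exception (-0.91, limma adjusted p 0.0946). In isografts against normal corneas 3 were called lower (median -0.70), namely miR-200a-3p (-1.25), miR-200b-3p (-1.08) and miR-184 (-1.05). In allografts against isografts 5 were called lower (median -1.03). The summed level of the 9 was 27981 to 62024 RPM in allografts, 143899 to 158262 RPM in isografts and 232153 to 363279 RPM in normal corneas. Most of that sum was miR-184 alone, at 24753 to 54480 RPM in allografts, 131748 to 143730 RPM in isografts and 214371 to 339752 RPM in normal corneas. The sum therefore mainly restates miR-184.

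The miRNAs whose pattern over the 9 libraries was closest to each abundant member were mostly of this epithelial set. Likeness was the root mean square difference of log2(RPM + 1), each miRNA centred on its own mean, over the 276 other tested miRNAs. For miR-205 the nearest were miR-200a-3p (0.0855), miR-429 (0.18), miR-200b-5p (0.25), miR-204-3p (0.25) and miR-96-5p (0.27), against a median of 0.91 for all. For miR-31a-5p they were miR-429 (0.17), miR-499-5p (0.225), miR-96-5p (0.23), miR-200a-3p (0.24) and miR-200c-3p (0.30), and for miR-203a-3p they were miR-96-5p (0.20), miR-200c-3p (0.21), miR-125b-5p (0.25), miR-99a-5p (0.25) and miR-429 (0.26). Among the members, miR-205 and miR-31a-5p were 0.22 apart, miR-205 and miR-203a-3p 0.38 and miR-205 and miR-203b-3p 1.04. These values come from 9 libraries that share their groups and their RPM scale, so they describe a shared pattern and were not tested.

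**Figure D5:**
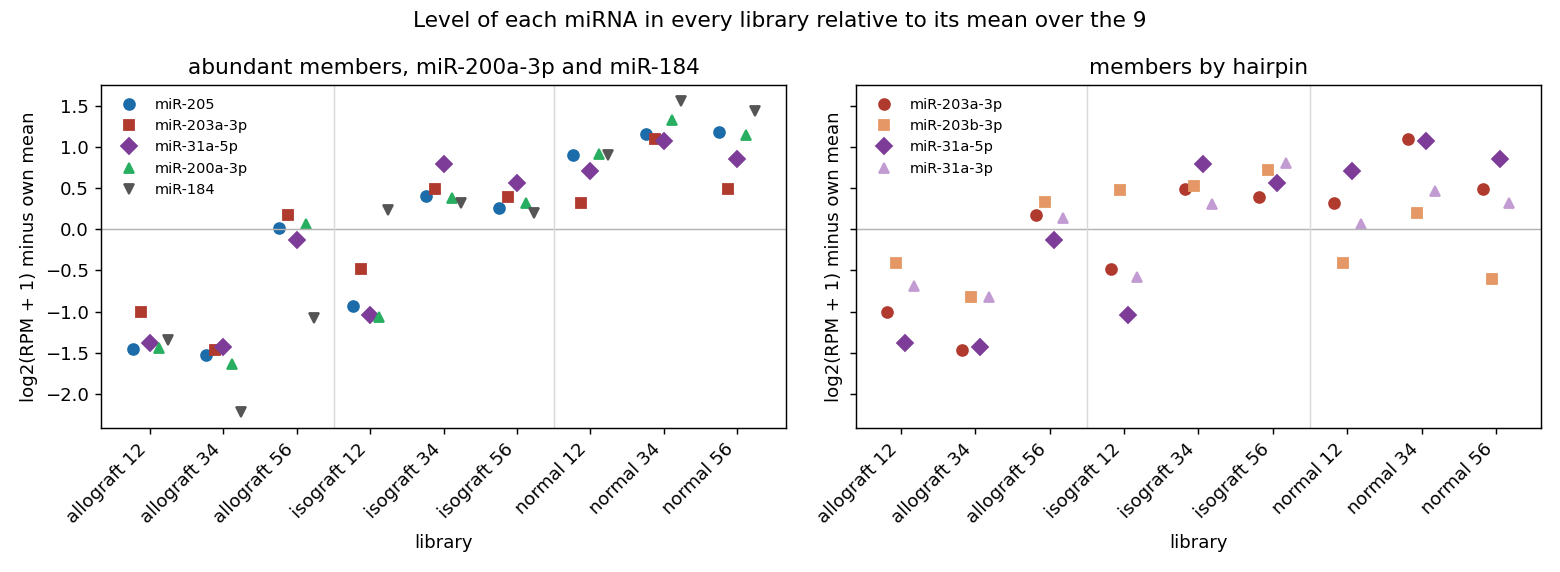
Level of each miRNA in every library minus its mean over the 9 libraries, on the log2(RPM + 1) scale (y axis). The left panel shows the abundant members with miR-200a-3p and miR-184, and the right panel shows the members by hairpin. The abundant members and miR-200a-3p are low in allografts 12 and 34 and isograft 12, whereas miR-184 is not low in isograft 12.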

How the data were processed

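Small RNA of 9 rat corneal libraries was measured. Per the labels' protocols, RNA was extracted with Trizol and 1 ug went into TruSeq small RNA libraries. The authors deposited RPM values for 765 mature miRNAs, and every column matched 1 library. The submitters' processing notes name bcl2fastq, BWA and rn6. Tool versions, read trimming and the treatment of multiply matching reads were not given in the sources used here. The RPM values moved in fixed steps, and 100% came out as whole reads within 0.1 read. The filter on low values, 5 RPM or more in 3 or more libraries, kept 281 miRNAs. A pseudocount of 1 RPM was added before the log2 transform, so fold changes of low miRNAs are understated. A trended limma model (limma 3.58.1, R 4.3.3) took all 9 libraries, left 6 residual degrees of freedom and used a threshold of 0.05 on adjusted p-values. As alternatives, recovered reads were tested with edgeR 4.0.16 and DESeq2 1.42.0, and scaling, filter, pseudocount, variance model and libraries were varied. Ratios were tested by exact permutation in Python 3.11.15. All members are named in every comparison, with the 5 nearest miRNAs of each abundant one. Members and lists were chosen with earlier results of these data known.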

Additional observations from a re-analysis of the deposited data

How the results depend on the processing

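The falls of miR-205, miR-203a-3p and miR-31a-5p in allografts against normal corneas passed in 23 of 23 other settings, with log2 fold changes from -2.57 to -1.35, -1.87 to -0.68 and -2.29 to -1.13; the miR-205 fall in isografts passed in 18 of 23. Scaling moved the median of all miRNAs in allografts against normal corneas from -0.14 to -0.02 (median of ratios), -0.56 (without miR-184) and 0.54 (sum of listed miRNAs). In isografts against normal corneas the median was 0.05 and became -0.05, -0.22 and 0.33 under these scalings, and in allografts against isografts it was -0.29 and became -0.08, -0.44 and 0.10. In isografts against normal corneas 1 member passed of 60 miRNAs called in either direction, against 0 with no filter (70 called) and with a filter of 50 RPM (30), 3 by median of ratios (115), 2 without miR-184 (62), 2 by the sum of listed miRNAs (122), 4 with edgeR (114), 4 with DESeq2 (119) and 2 without isograft 12 and allograft 34 (80). By median of ratios, the sum of listed miRNAs, edgeR, DESeq2 and without both libraries, 1 of those was miR-203b-3p, as higher. It was tested because of its isograft values, so these passes support no call. Leaving out 1 library gave 0 to 1 (40 to 79 called of 271 to 280 tested), and without isograft 12 the 1 was miR-203b-3p, higher, with miR-205 no longer called. In allografts against normal corneas 3 passed, or 4 in 6 settings, with miR-31a-3p added. The share of all miRNAs called lower rose too, from 24.2% in the main fit. It was 32.4% by median of ratios, 37.4% without miR-184, 36.3% with edgeR and 33.0% with DESeq2. Without allograft 56 it was 28.4%, and without isograft 12 it was 31.4%. In allografts against isografts 0 passed (97 miRNAs called), against 1 at a pseudocount of 5 RPM (98), 4 by median of ratios (168), 4 without miR-184 (107), 3 with robust variance (106), 5 with edgeR (173), 4 with DESeq2 (171), 3 without both libraries (114) and 0 to 5 leaving out 1 library. The replicate block gave 4 there (112 miRNAs called). The counts of 4 and 5 there include miR-203b-3p, tested because of its isograft values. The labels do not say what the numbers 12, 34 and 56 mean. Correlations of same-numbered deviations from the group means ran from -0.51 to 0.56, with 2 of 9 over 0.1. With 3 libraries a group these cannot settle whether libraries of the same number form a block. For miR-203b-3p in allografts against normal corneas the sign turned to 0.056 by median of ratios, 0.55 by the sum of listed miRNAs, 0.054 with DESeq2 and 0.23 without both libraries, with -0.34 to 0.23 leaving out 1 library. For miR-31a-3p in isografts against normal corneas it turned to 0.17 by the sum of listed miRNAs and 0.27 without both libraries, with -0.42 to 0.27 leaving out 1. The allograft minus normal difference in the log2 ratio of miR-203b-3p to miR-203a-3p ran from 1.28 to 1.53 leaving out 1 library. The causes were not tested.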
